A study of Mus musculus with 24 samples.

Results

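The Hox genes analysed here are the 38 homeobox genes of the Hoxa, Hoxb, Hoxc and Hoxd clusters that the study's gene table lists by these names, 10 in Hoxa, 10 in Hoxb, 9 in Hoxc and 9 in Hoxd. They were chosen by name, not by any measured value, and are 38 of 21883 protein-coding genes. Chromatin with H3K9ac, the acetylated form of lysine 9 on histone H3 that marks active promoters, was immunoprecipitated and sequenced from day 5 embryoid bodies, the aggregates in which mouse embryonic stem cells begin to differentiate. All cells were C57BL/6 by their labels. The Gcn5fx/fx group held clones 4_1 and 6_1, in which both copies of the gene for the acetyltransferase Gcn5 are floxed, and the Gcn5-/- group held clones 4_C2 and 6_C4, which lack it. The submitters speak of isolate pairs: pair 4 is 4_1 with its Gcn5-/- partner 4_C2, and pair 6 is 6_1 with 6_C4. Each clone has 2 replicates, which makes 4 libraries per genotype.

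Each clone is 1 cell line, and its replicates share that line's history, so a test here reads the spread of 8 libraries from 4 lines. An embryoid body is a mixture of cell types, and a peak present in fewer cells cannot be told apart from weaker acetylation in every cell.

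Hox genes encode transcription factors that give cells their position along the head-to-tail axis. Within a cluster the genes stand in the order in which they are used: the low-numbered genes at the 3′ side come on first and in the hindbrain, the high-numbered genes at the 5′ side later and towards the tail, a rule called collinearity. Genes of the same number in different clusters, called paralogues, derive from 1 ancestral gene. In embryonic stem cells the clusters are held by Polycomb proteins, and Trithorax proteins, retinoic acid, Wnt signals and Cdx factors take part in their opening.

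The measurements were the positions of called peaks, 1 list per library, of 12041 to 20809 peaks covering 21.8 to 44.3 Mb. The lists of pair 6 were longer than those of pair 4 (at least 17849 against at most 15315 peaks), and the shortest was that of 4_C2 replicate 2. Peak height was not given and sequencing depth is unknown. Kat2a, which encodes Gcn5, had a peak at an end in all 8 libraries, and the peak lists do not test its deletion. Feeder fibroblast markers were checked because such cells express Hox genes: 4 of 8 (Col3a1, Prrx1, Postn and Dcn) had no peak in any library. Of the rest, Twist2 had a peak in 6 libraries, all but those of 4_C2, Thy1 in 3 and the other markers in 1 each. The summed covered length of all 8 markers was 1771 to 3817 bp in fx/fx libraries and 0 to 2650 bp in -/- libraries. That sum was 0 to 2323 bp in pair 4 and 1905 to 3817 bp in pair 6, and its part in the results below was not tested.

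A gene was counted as marked when a peak overlapped the 1 kb on either side of either annotated end, and its covered length is the number of base pairs of those windows lying in peaks. Hox genes were marked less often than protein-coding genes at large in each of the 8 libraries. The number of marked Hox genes was 15 and 12 in the replicates of 4_1, 9 and 7 in 4_C2, 16 and 16 in 6_1, and 13 and 16 in 6_C4. That is 18.4% to 42.1% of the 38, against 47.5% to 59.0% of all protein-coding genes. Over the libraries together, 22 Hox genes (57.9%, against 62.2% of all genes) were marked at least once, 14 (36.8% against 56.4%) in at least 4 libraries, and 3 (7.89% against 45.3%) in all 8. Hox peaks were thus found in some libraries and not in others more often than peaks of genes in general, and the values below are given library by library.

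**Figure D1:**
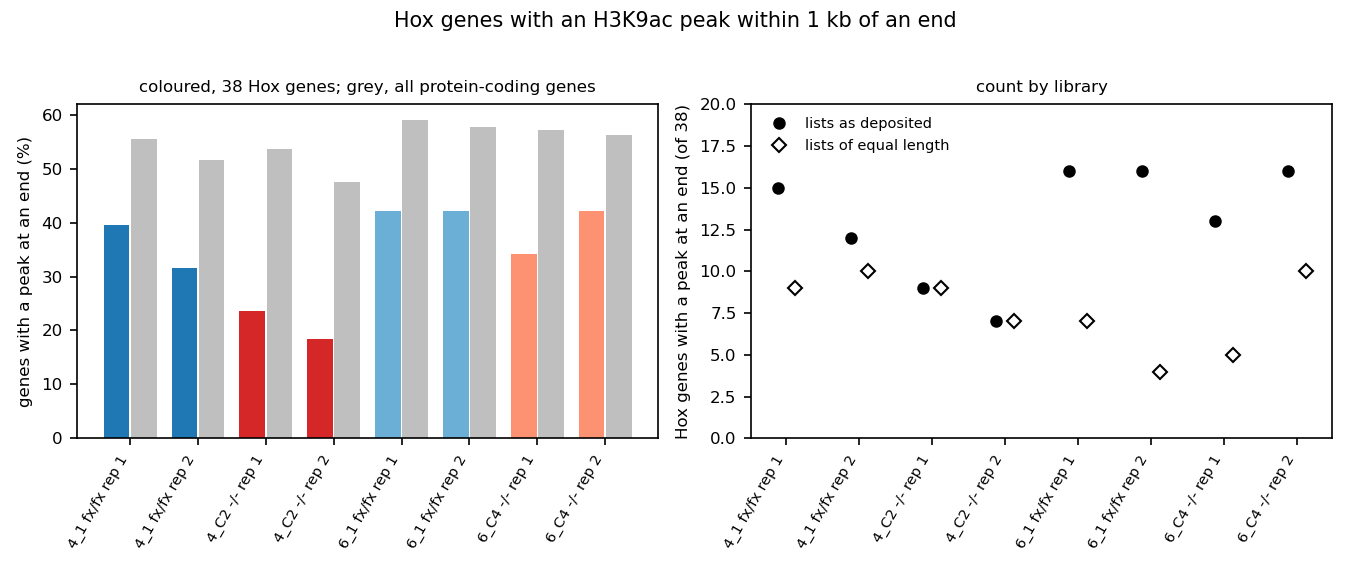
Hox genes with a peak within 1 kb of an end, by library. On the left, coloured bars give the percent of the 38 Hox genes and grey bars the percent of all protein-coding genes. On the right, filled circles count Hox genes in the lists as deposited, 7 to 16, and open diamonds in lists shortened to the length of the shortest by keeping the widest peaks, 4 to 10.

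The 3 genes marked in all 8 libraries were Hoxa4 and Hoxb2, of the anterior group that patterns hindbrain and neck, and Hoxd8, of the central group that acts in the trunk. Marked in 7 libraries were Hoxb4, Hoxb7 and Hoxd9, in 6 Hoxa5 and Hoxa6, and in 5 Hoxa2, Hoxb8, Hoxb9, Hoxc13 and Hoxd13. Hoxa13 was marked in 4. Hoxa7, Hoxb13, Hoxc6 and Hoxd1 were marked in 3, Hoxa9 and Hoxd3 in 2, and Hoxc8 and Hoxd10 in 1. No end peak was listed in any library for the remaining 16: Hoxa3, Hoxa10, Hoxa11, Hoxb1, Hoxb3, Hoxb5, Hoxb6, Hoxc4, Hoxc5, Hoxc9, Hoxc10, Hoxc11, Hoxc12, Hoxd4, Hoxd11 and Hoxd12. Of these 16, 6 had a peak elsewhere in their span (Hoxa3, Hoxb3, Hoxc4, Hoxc9, Hoxd4 and Hoxd11) and 10 had none at all.

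**Figure D2:**
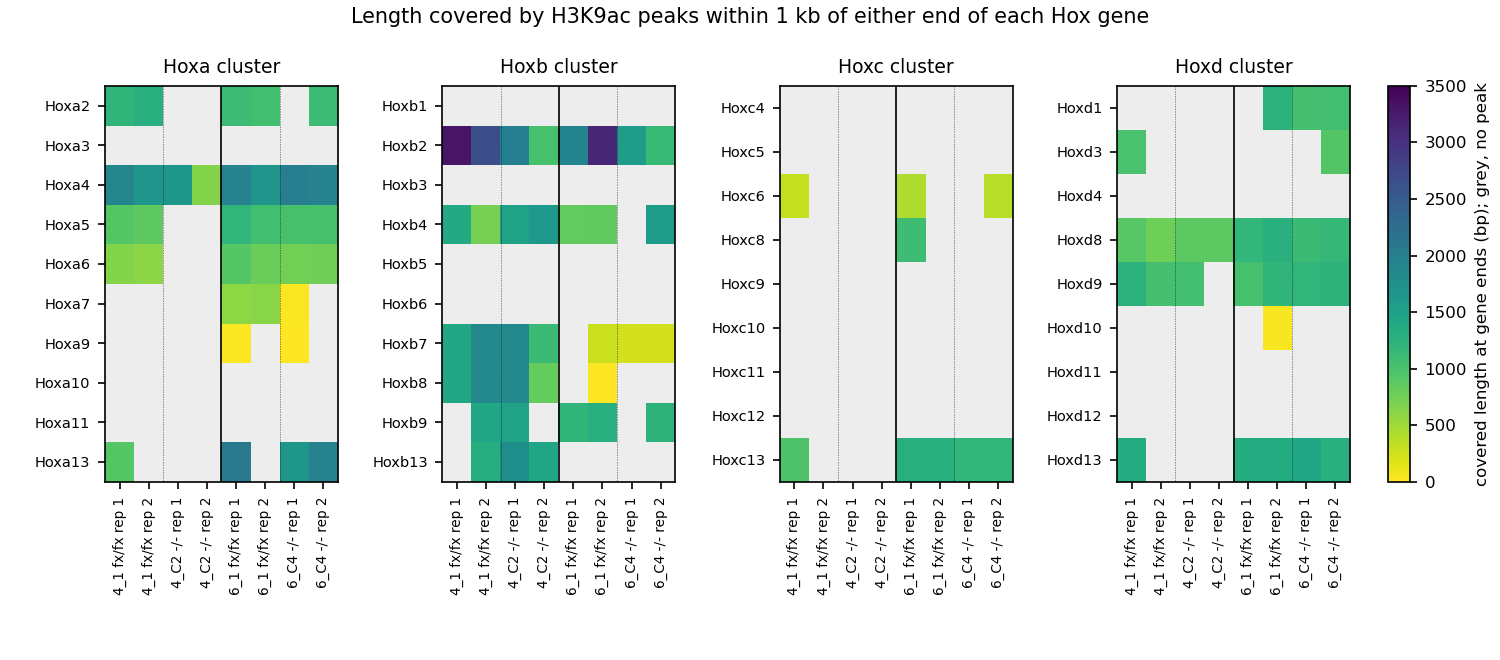
Covered length in base pairs at the ends of each of the 38 Hox genes (rows, by cluster) in each of the 8 libraries (columns). Grey means no peak; the vertical line parts isolate pair 4 from isolate pair 6. Hoxb7, Hoxb8 and Hoxb13 are darker on the pair 4 side, while Hoxa7, Hoxc13, Hoxd1 and Hoxd13 are filled mostly on the pair 6 side.

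Read by number, the marks did not run evenly along the axis. Groups 1 to 4 had 6 of 11 genes marked at least once, groups 5 to 8 had 8 of 11, and group 9 had 3 of 4. In groups 10 to 12, which pattern the lumbar and sacral body and the limbs, 1 of 8 genes was marked, and that was Hoxd10 with 30 bp in 6_1 replicate 2. Counting each gene in each library, 1 of 64 combinations (1.56%) was marked in groups 10 to 12. In group 13, the last genes of the clusters and those of the tail and digits, all 4 paralogues were marked in some library, in 17 of 32 combinations (53.1%). For comparison the shares were 37.5% in groups 1 to 4, 44.3% in groups 5 to 8 and 43.8% in group 9. The terminal genes Hoxa13, Hoxc13 and Hoxd13 therefore carried end peaks while their cluster neighbours of groups 10 to 12 nearly all did not. Hoxb13 has no such neighbours, as Hoxb holds no listed gene of groups 10 to 12. A peak over an inner start of Hoxd11 in 3 libraries is not counted, because that start lies outside the windows at the gene's ends. These counts describe 8 libraries and have no test.

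**Figure D3:**
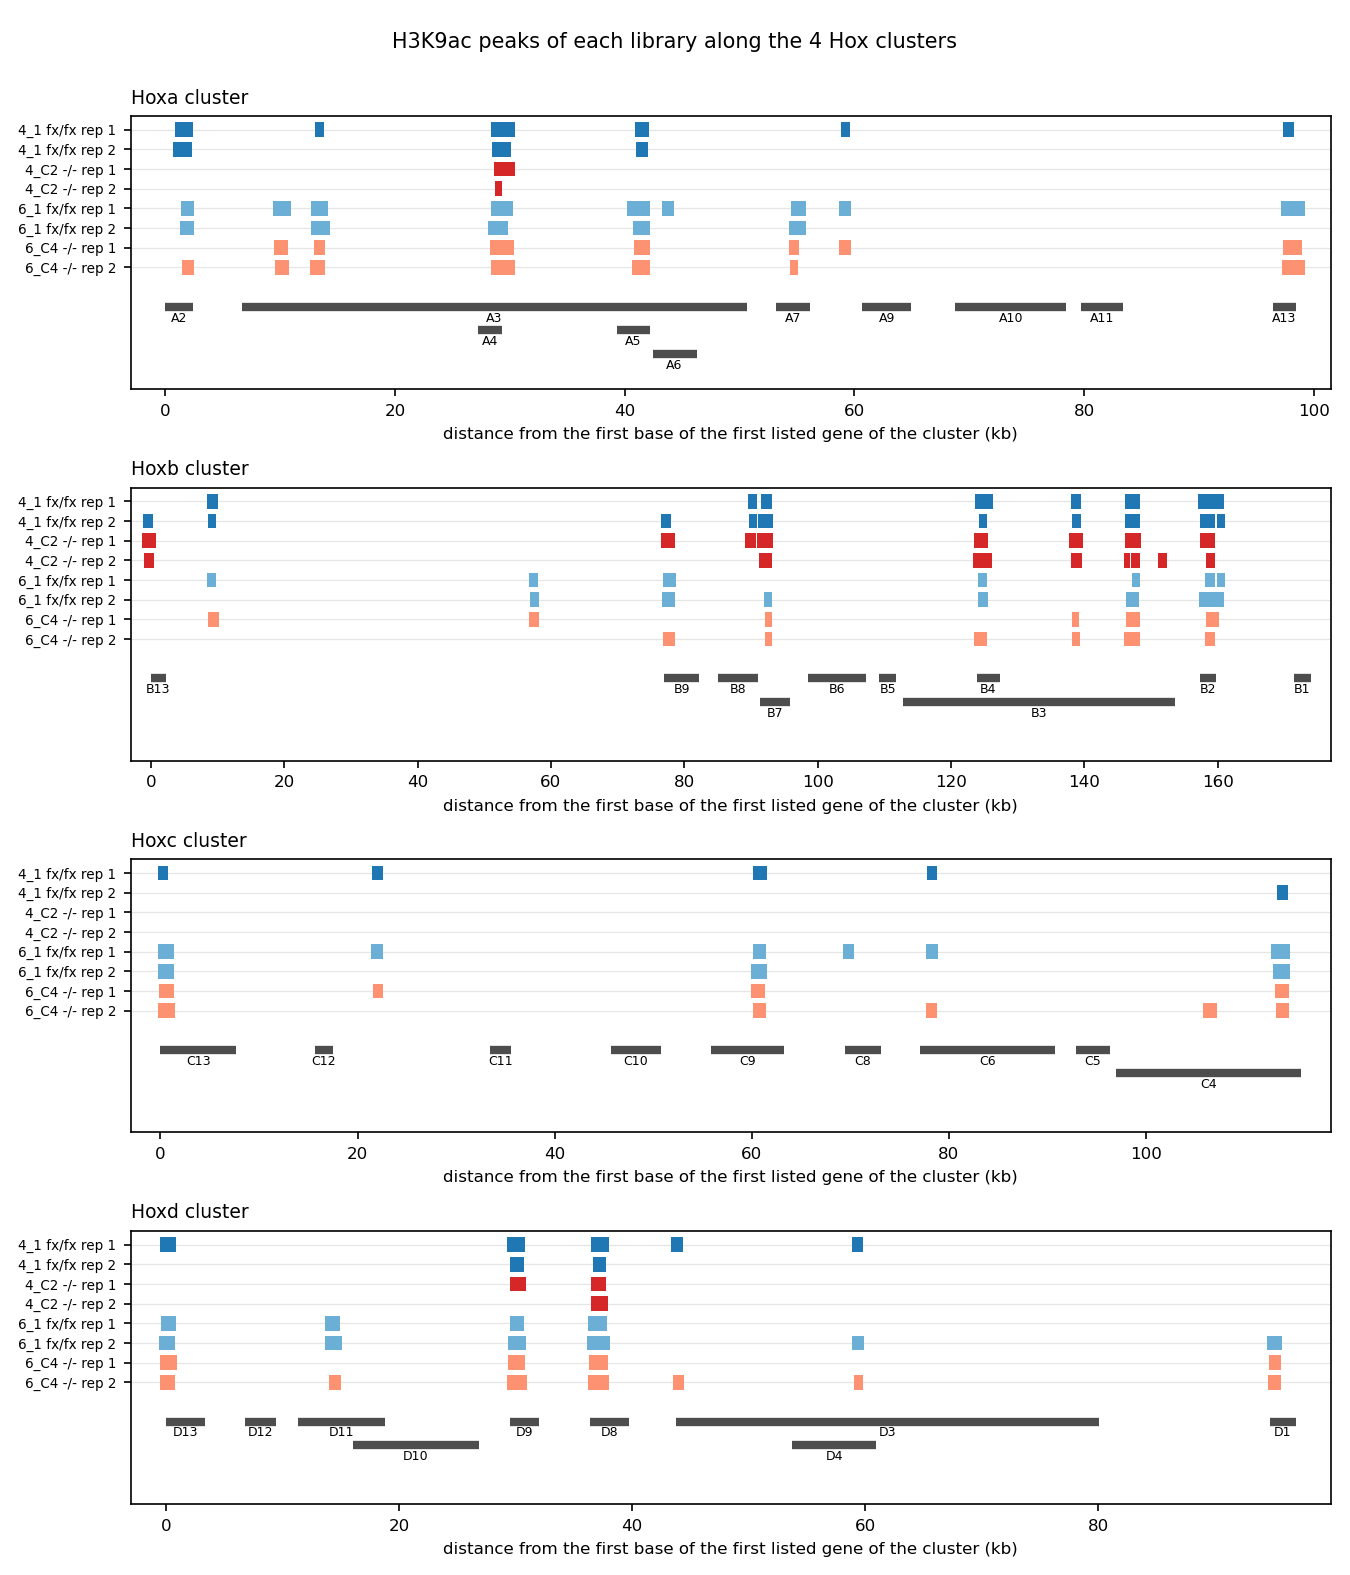
Peaks of each library (coloured bars, 1 row per library) along the 4 clusters, in kb from the first base of the first listed gene. Dark bars below are gene spans, with the cluster letter and gene number. In Hoxb the rows of pair 4 (upper 4) hold the longer peaks around Hoxb7 and Hoxb8, and in Hoxc the 2 rows of 4_C2 are empty.

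The Hoxa genes lie on chromosome 6, and Hoxa2 to Hoxa13 span 98.464 kb (mm10, chr6:52162417-52260880). The length covered by peaks in this span was 7418 and 4413 bp in 4_1, 1795 and 643 bp in 4_C2, 12956 and 7553 bp in 6_1, and 8691 and 9279 bp in 6_C4. Both -/- libraries of pair 4 lay below both fx/fx libraries of that pair, and in 4_C2 the region at Hoxa4 held all of it. In pair 6 the genotypes overlapped.

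Hoxa4 (NCBI Gene 15401), a gene of the neck vertebrae and neural tube, was marked everywhere. Its covered length was 1901 and 1674 bp in 4_1, 1644 and 643 bp in 4_C2, 1950 and 1673 bp in 6_1, and 1999 and 1953 bp in 6_C4. The -/- libraries of pair 4 were the lowest and those of pair 6 the highest, so the difference between genotypes was -644 bp in pair 4 and 164.5 bp in pair 6. In limma over 12345 genes the interaction was 0.87 ± 0.47 (SE) in log2(covered bp + 100) with a Benjamini-Hochberg adjusted p of 0.987.

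Hoxa5, needed for lung and lower neck development, and its neighbour Hoxa6 share 1 peak region (chr6:52202584-52204640), so most of their signal is 1 observation and not 2. At Hoxa5 covered length was 922 and 873 bp in 4_1, 0 in both replicates of 4_C2, 1198 and 1054 bp in 6_1, and 1017 and 1023 bp in 6_C4. At Hoxa6 it was 651 and 602 bp in 4_1, 0 in both of 4_C2, 920 and 783 bp in 6_1, and 746 and 752 bp in 6_C4. Within pair 4 the genotypes were fully apart, with no peak listed in the -/- clone, while in pair 6 both genotypes had a peak in every library and the -/- values lay a little below those of fx/fx. Pair 6 lay above pair 4 in every library at both genes.

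The sequence upstream of Hoxa5 is shown because the peak next to it is one of those that parted the genotypes in pair 4. It is the 250 bases before the start of transcription on the minus strand (RefSeq, GRCm38.p6, chr6:52204588-52204837), and capitals mark the letters CCAAT on either strand, here in reverse.
Hoxa5: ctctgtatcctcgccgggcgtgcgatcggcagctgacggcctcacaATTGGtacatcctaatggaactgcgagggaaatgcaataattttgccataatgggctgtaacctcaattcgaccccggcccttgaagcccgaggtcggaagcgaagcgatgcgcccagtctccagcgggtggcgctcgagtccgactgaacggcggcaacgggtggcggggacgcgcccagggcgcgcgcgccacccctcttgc
It is rich in G and C (63.6%, with 28 CG dinucleotides). Peaks covered 16 to 53 of these 250 bases in the 4 libraries of pair 6 and none in pair 4. Where a peak was called, it began between 53 bases before and 128 bases after the start and ended 1152 to 2003 bases into the gene, so the marked part is the transcribed side.

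Hoxa2, the gene of the second branchial arch and the hindbrain, was marked in all 4 fx/fx libraries and in 1 of 4 -/- libraries. Its covered length was 1211 and 1301 bp in 4_1, 0 in both of 4_C2, 1099 and 1061 bp in 6_1, and 0 and 1098 bp in 6_C4. The fx/fx libraries lay close together, and 6_C4 replicate 2 overlapped them. At Hoxa7, of the trunk, covered length was 0 in all of pair 4, 598 and 618 bp in 6_1 and 15 and 0 bp in 6_C4, but its window holds only the edge of a region inside the gene (chr6:52216702-52218190). That region had a peak in all 4 libraries of pair 6 (1284, 1489, 870 and 746 bp) and in none of pair 4.

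Hoxa13, a gene of digits and hindgut, had 927 and 0 bp in 4_1, 0 in both of 4_C2, 2079 and 0 bp in 6_1, and 1642 and 1950 bp in 6_C4; replicates of a clone disagreed in both fx/fx clones. At Hoxa9, which is used in trunk and blood cells, windows held 27 bp in 6_1 replicate 1 and 5 bp in 6_C4 replicate 1, the edge of a peak lying between Hoxa7 and Hoxa9. The gene model of Hoxa3 spans 44 kb and takes in Hoxa4, Hoxa5 and Hoxa6, so the peaks inside it include theirs. Besides those, 2 regions lay in its span away from any gene end, 1 with peaks in 3 libraries, all of pair 6, and 1 in 5.

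The Hoxb genes lie on chromosome 11, and Hoxb13 to Hoxb1 span 173.939 kb (chr11:96194316-96368254). Covered length was 14849 and 14701 bp in 4_1, 15733 and 11693 bp in 4_C2, 9890 and 11648 bp in 6_1, and 9092 and 10073 bp in 6_C4. Here all libraries of pair 4 lay above all of pair 6, although the lists of pair 6 were longer. Relative to the length of all peaks in the library, Hoxb took 471 to 551 bp per Mb in the 4 libraries of pair 4 and 223 to 276 bp per Mb in those of pair 6. With all lists shortened to the same number of peaks by keeping the widest, it was 11693 to 15733 bp in pair 4 and 1887 to 7696 bp in pair 6. Shortening can only lower covered length, and it took the most peaks from the longer lists of pair 6. It is therefore not a separate check of the difference between pairs. In the other clusters covered length was greater on average in pair 6, without overlap in Hoxa (pair 4 mean 3567.25, pair 6 mean 9619.75 bp) and Hoxc (1355.75 and 6168.5 bp) and with overlap in Hoxd (3054 and 6525 bp), and relative to the length of all peaks in the library the pairs overlapped in all 3. With lists of equal length, cut most in pair 6, the difference fell from 6052.5 to 1421.5 bp in Hoxa and from 4812.75 to 1339.75 bp in Hoxc. In Hoxd it turned from 3471 to -400.5 bp.

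**Figure D4:**
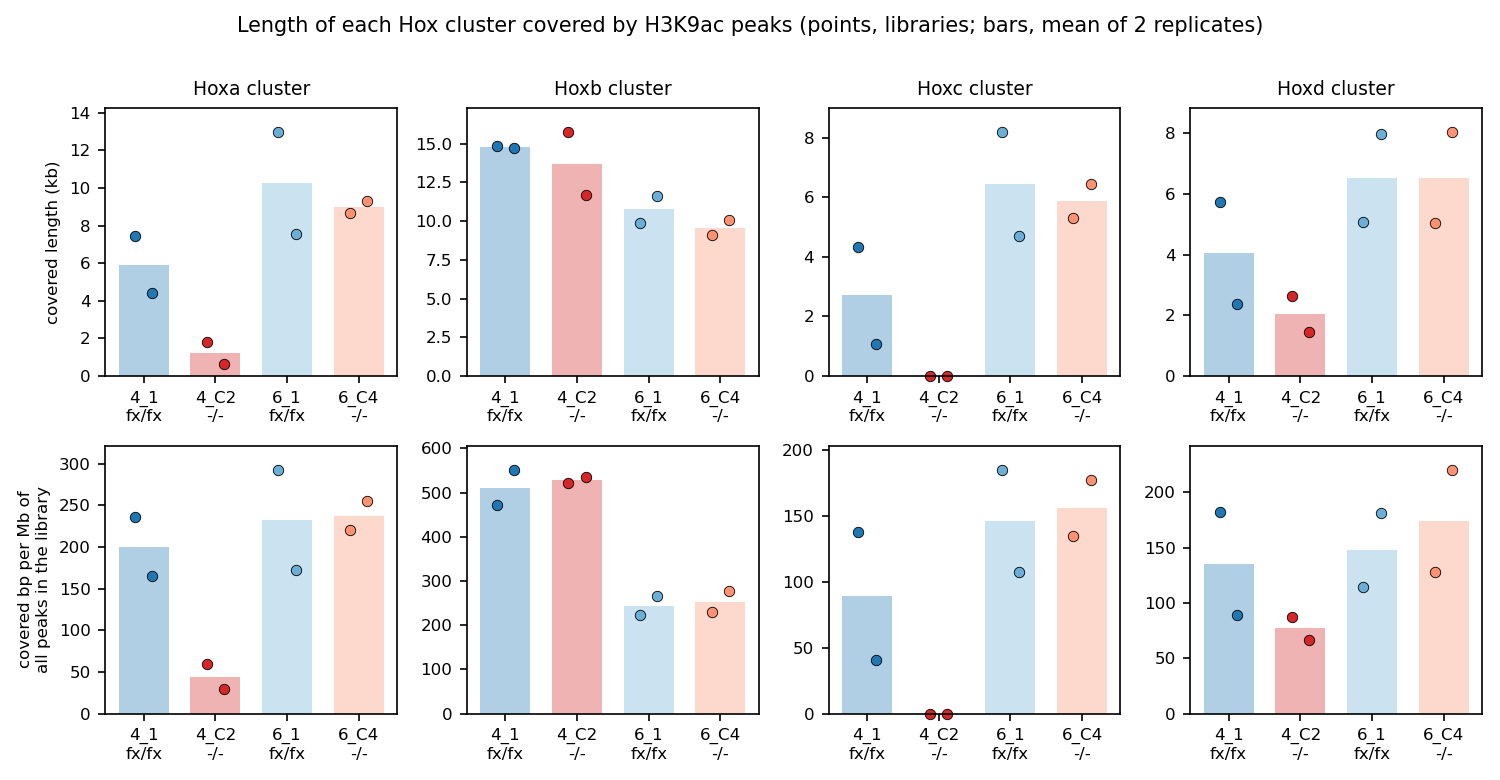
Length of each cluster covered by peaks, by clone, with a point per library and a bar for the mean of its 2 replicates. The upper row is in kb and the lower row is in bp per Mb of all peaks in that library. Hoxb is the only cluster of the 4 in which pair 4 lies above pair 6 in the upper row, and in the lower row its 2 pairs lie at 471 to 551 and 223 to 276.

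The Hoxb difference between pairs centred on Hoxb7 and Hoxb8, genes of the trunk and spinal cord that share 1 region (chr11:96283463-96287686). At Hoxb8 covered length was 1400 and 1851 bp in 4_1, 1853 and 830 bp in 4_C2, 0 and 3 bp in 6_1, and 0 in both of 6_C4. At Hoxb7 it was 1400 and 1851 bp in 4_1, 1853 and 1109 bp in 4_C2, 0 and 282 bp in 6_1, and 243 and 240 bp in 6_C4. All values of pair 4 were above all of pair 6 at both genes, and the genotypes overlapped. The whole region was 1935 to 3975 bp wide in pair 4, while pair 6 had no peak there in 6_1 replicate 1 and 1130 to 1184 bp in the other 3.

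Hoxb13, the distant last gene of the cluster, followed the same side: 0 and 1320 bp in 4_1, 1755 and 1441 bp in 4_C2, and no peak in the 4 libraries of pair 6. At Hoxb9, of the rib cage, covered length was 0 and 1434 bp in 4_1, 1487 and 0 bp in 4_C2, 1205 and 1302 bp in 6_1, and 0 and 1241 bp in 6_C4, with no order by genotype or pair. Of the 22 Hox genes marked at all, 14 were marked in more libraries of pair 6 than of pair 4 (63.6%, against 22.6% of all genes with a peak), and 4 in more of pair 4 (18.2% against 2.47%). The 4 were all Hoxb genes: Hoxb4, Hoxb7, Hoxb8 and Hoxb13. Genes marked in all 8 libraries cannot differ, and they were 9908 of the 13618 genes with a peak but 3 of the 22 Hox genes. The shares therefore do not show that Hox genes leaned to pair 6 more than other varying genes. Over all genes, 3080 were marked in more libraries of pair 6 and 337 in more of pair 4.

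Hoxb2 (NCBI Gene 103889), which acts in the facial motor neurons of the hindbrain, reached the widest covered length of any Hox gene, but not in every library. Its covered length was 3310 and 2657 bp in 4_1, 1984 and 1016 bp in 4_C2, 1923 and 3118 bp in 6_1, and 1560 and 1146 bp in 6_C4. In both libraries of 6_C4 it lay below Hoxa4. In each pair both -/- libraries lay below both fx/fx libraries, but over all 8 libraries the groups overlapped through 4_C2 replicate 1 and 6_1 replicate 1. In limma over 12345 genes the change was -0.84 ± 0.22 (SE) in log2(covered bp + 100), with an unadjusted p of 0.00787 and a Benjamini-Hochberg adjusted p of 0.692. The change did not pass the threshold of 0.05.

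At Hoxb4, used in hindbrain and blood progenitors, covered length was 1356 and 717 bp in 4_1, 1487 and 1628 bp in 4_C2, 841 and 853 bp in 6_1, and 0 and 1565 bp in 6_C4. The upstream sequence of Hoxb4 is shown because here the peak reached over the start in some libraries and stopped short of it in others. It is the 250 bases before the start (RefSeq, GRCm38.p6, chr11:96318017-96318266, plus strand), with no CCAAT and no CACGTG on either strand, hence all in lower case.
Hoxb4: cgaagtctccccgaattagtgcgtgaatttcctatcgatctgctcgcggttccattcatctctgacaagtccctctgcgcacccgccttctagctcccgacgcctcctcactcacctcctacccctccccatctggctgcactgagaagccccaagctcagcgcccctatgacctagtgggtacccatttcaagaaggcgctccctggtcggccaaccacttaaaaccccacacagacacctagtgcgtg
Peaks covered all 250 bases in 4_1 replicate 1, both replicates of 4_C2 and 6_C4 replicate 2, and none of them in the other 4 libraries. The libraries with the upstream bases covered were 3 of pair 4 and 1 of pair 6, and 1 fx/fx and 3 -/-.

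Hoxb3, a hindbrain gene with a span of 40.8 kb, had no end peak but 3 regions inside its span beside that of Hoxb4, of which 1 was in a single list, that of 4_C2 replicate 2. One (chr11:96340300-96342772) was in all 8 lists and 1208 to 2393 bp wide. The other (chr11:96332022-96334053) measured 1371 and 1378 bp in 4_1, 2032 and 1613 bp in 4_C2, 0 in both of 6_1, and 958 and 1191 bp in 6_C4. In both pairs the -/- libraries lay above the fx/fx libraries, and in pair 6 the peak was listed in the -/- clone only. A limma fit over 15383 regions found in at least 4 lists, with a pseudocount of 100 bp, called this region higher in -/- within pair 6 (Benjamini-Hochberg adjusted p = 0.00285), 1 of 4 such calls (0.026% of the regions tested), and the pairs differed (interaction adjusted p = 0.002, where 2.25% of regions were called). The same fit did not call the region between genotypes over both pairs (adjusted p = 0.8) or within pair 4 (adjusted p = 0.389). Both libraries of 6_1 are listed at 0 and so have no spread, which makes the standard error within pair 6 small. The size on the log2 scale rests on the pseudocount, and the region was not tested in the fit of regions present in all 8 lists.

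Mir10a lies next to Hoxb4, and its mature product is given with that of Mir10b from the Hoxd cluster because both share a seed (bases 2 to 8, capitals) and differ outside it (RefSeq).
mmu-miR-10a-5p: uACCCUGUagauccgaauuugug
mmu-miR-10b-5p: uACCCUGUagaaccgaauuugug
Within 1 kb of the Mir10a hairpin peaks covered 363 and 0 bp in 4_1, 494 and 635 bp in 4_C2, 0 in both of 6_1, and 0 and 572 bp in 6_C4, the same 4 libraries whose peak reached over the Hoxb4 start. At Mir10b they covered 24 bp in 4_1 replicate 1 and 47 bp in 6_1 replicate 2. Mir196a-1, Mir196a-2, Mir196b and Mir615, the other microRNA genes inside the clusters that were matched, had no peak within 1 kb in any library.

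The Hoxc genes lie on chromosome 15, and Hoxc13 to Hoxc4 span 115.726 kb (chr15:102921131-103036856). Covered length was 4341 and 1082 bp in 4_1, 0 in both replicates of 4_C2, 8188 and 4707 bp in 6_1, and 5318 and 6461 bp in 6_C4. The -/- clone of pair 4 had no peak in the whole cluster, whereas in pair 6 the genotypes overlapped. Hoxc13, a gene of hair and nails, had 984 and 0 bp in 4_1, 0 in both of 4_C2, 1292 and 1275 bp in 6_1, and 1190 and 1196 bp in 6_C4, all of pair 6 above all of pair 4. Hoxc6 had an end peak of 313, 423 and 378 bp in 4_1 replicate 1, 6_1 replicate 1 and 6_C4 replicate 2, and Hoxc8 one of 1093 bp in 6_1 replicate 1. Away from gene ends, regions inside Hoxc9 and Hoxc4 were each found in 5 libraries, 1 of them from pair 4, and the region in Hoxc4 overlapped an annotated start of that gene.

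The Hoxd genes lie on chromosome 2, and Hoxd13 to Hoxd1 span 96.918 kb (chr2:74668225-74765142). Covered length was 5744 and 2378 bp in 4_1, 2646 and 1448 bp in 4_C2, 5063 and 7965 bp in 6_1, and 5036 and 8036 bp in 6_C4, with overlap between genotypes in both pairs. Hoxd8, a trunk gene, varied least: 909 and 776 bp in 4_1, 881 and 884 bp in 4_C2, 1184 and 1284 bp in 6_1, and 1119 and 1175 bp in 6_C4. Its values were higher in all of pair 6 than in all of pair 4 and did not separate by genotype (limma, 0.06 ± 0.07 SE on the log2 scale, adjusted p = 0.703).

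Hoxd9, of limb and spinal cord, was listed with 1249 and 1034 bp in 4_1, 1043 and 0 bp in 4_C2, 1014 and 1213 bp in 6_1, and 1196 and 1235 bp in 6_C4, so 4_C2 replicate 2 was the only library without it. Hoxd13, the digit gene, had 1336 and 0 bp in 4_1, 0 in both of 4_C2, 1335 and 1350 bp in 6_1, and 1433 and 1285 bp in 6_C4. Hoxd1 had no peak in pair 4, 0 and 1251 bp in 6_1 and 1035 and 1057 bp in 6_C4. Hoxd3 had 1008 bp in 4_1 replicate 1 and 932 bp in 6_C4 replicate 2. A start of Hoxd11 inside its gene model lay in a peak in both replicates of 6_1 and in 6_C4 replicate 2, and the edge of that peak gave the 30 bp at Hoxd10.

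Upstream sequences of 4 Hoxd genes are shown because each holds CACGTG, the E-box read by Myc-Max and related helix-loop-helix proteins, and c-Myc is named in the title of the study. They are the 250 bases before the start, all on the plus strand of chromosome 2 (RefSeq, GRCm38.p6): Hoxd13 chr2:74667975-74668224, Hoxd11 chr2:74682073-74682322 (the inner start), Hoxd10 chr2:74691641-74691890 and Hoxd1 chr2:74762730-74762979. Capitals mark CACGTG and CCAAT, the latter on either strand.
Hoxd13: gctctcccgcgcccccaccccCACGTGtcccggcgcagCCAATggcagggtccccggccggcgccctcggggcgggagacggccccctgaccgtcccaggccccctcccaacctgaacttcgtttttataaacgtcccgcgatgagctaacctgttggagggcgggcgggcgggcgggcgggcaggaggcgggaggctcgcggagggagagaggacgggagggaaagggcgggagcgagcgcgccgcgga
Hoxd11: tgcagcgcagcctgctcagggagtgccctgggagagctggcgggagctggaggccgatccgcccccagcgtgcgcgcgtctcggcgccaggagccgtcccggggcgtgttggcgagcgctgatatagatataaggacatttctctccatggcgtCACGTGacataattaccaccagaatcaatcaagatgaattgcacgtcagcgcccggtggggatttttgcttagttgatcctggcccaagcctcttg
Hoxd10: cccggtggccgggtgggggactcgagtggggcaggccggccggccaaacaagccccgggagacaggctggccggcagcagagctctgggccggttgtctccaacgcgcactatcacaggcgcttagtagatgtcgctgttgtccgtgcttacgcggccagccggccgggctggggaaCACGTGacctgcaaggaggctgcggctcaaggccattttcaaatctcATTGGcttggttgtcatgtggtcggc
Hoxd1: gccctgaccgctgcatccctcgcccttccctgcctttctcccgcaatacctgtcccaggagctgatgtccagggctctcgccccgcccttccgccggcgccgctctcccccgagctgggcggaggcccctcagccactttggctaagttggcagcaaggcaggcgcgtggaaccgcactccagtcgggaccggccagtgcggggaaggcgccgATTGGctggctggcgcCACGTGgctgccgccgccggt
The E-box stood 229 bases before the start at Hoxd13, 96 at Hoxd11, 73 at Hoxd10 and 21 at Hoxd1. All 250 bases upstream of Hoxd13 lay in a peak in 5 libraries, 4_1 replicate 1 and the 4 of pair 6. Those of Hoxd1 were covered over 250, 100 and 179 bases in 6_1 replicate 2 and the replicates of 6_C4, and those of Hoxd11 over 250, 250 and 86 bases in the replicates of 6_1 and 6_C4 replicate 2. No library had a peak over those of Hoxd10, so promoters that hold the letters were both with and without peaks.

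RefSeq promoter windows of 300 bases (250 before to 50 after the start) matched 22 of the 38 genes, with 24 starts. CACGTG was in 5 of the 24 (20.8%), all in Hoxd (Hoxd4 is the fifth), against 7.84% of the 21262 promoters of protein-coding genes. CCAAT, the box bound by NF-Y, was in 15 of 24 (62.5% against 38.2%), and GGGCGG, the box bound by Sp factors, in 10 (41.7% against 46.2%), each searched on both strands. A match is a run of letters and says nothing of binding. Peaks overlapped 11 of the 24 windows in at least 1 library (45.8%, against 60.7% of those 21262) and none of the 24 in all 8 libraries (against 44.5%). The median number of CG dinucleotides was 20 in the 11 windows with a peak and 13 in the other 13. At 12 of the 24 starts a peak came within 1 kb, and at all 12 its median centre lay on the transcribed side, as seen at Hoxa5.

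Loss of Gcn5 was compared first over both pairs. A mean of 14.75 ± 1.89 Hox genes (SD, n = 4) was marked in fx/fx and 11.25 ± 4.03 in -/- libraries, a difference of -3.5 with ranges of 12 to 16 and 7 to 16 that overlapped. With lists of equal length the difference was 0.25, and counting only peaks over the end base itself it was 0. Of the 22 marked genes, 13 were marked in more fx/fx than -/- libraries (59.1%, against 16.3% of all genes with a peak) and 3 in more -/- libraries (13.6% against 5.19%). Genes marked in all 8 libraries cannot differ, and they were 9908 of the 13618 genes with a peak but 3 of the 22 Hox genes. These shares therefore do not measure whether Hox genes leaned to fx/fx more than other varying genes. Over all genes, 2214 were marked in more fx/fx and 707 in more -/- libraries. No Hox gene had peaks in all 4 fx/fx and no -/- library, which 0.0734% of genes with a peak did. Nor did any have covered lengths that parted the 2 genotypes, with -/- below in 1.5% and above in 0.103% of all genes with a peak.

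By limma with isolate pair as a covariate, on log2(covered bp + 100) over the 12345 genes that had peaks in 4 or more libraries, 0 of the 14 Hox genes tested were called between genotypes at a Benjamini-Hochberg adjusted p of 0.05, where 9 genes (0.0729%) were called, all lower in -/-. At an unadjusted p under 0.05 there were 4 Hox genes, Hoxa2 (-2.69 ± 0.84 SE), Hoxa5 (-1.64 ± 0.65), Hoxa6 (-1.43 ± 0.56) and Hoxb2, each lower in -/-. The values for Hoxa2, Hoxa5 and Hoxa6 depend on the pseudocount, as some libraries are listed at 0. The median over the 14 was -0.81 and 11 lay below 0 (78.6%), against a median of 0.03 over all genes tested, of which 42.2% lay below 0. Covered length cannot exceed the windows, and many genes were covered alike in every library. One such gene, Ezh2, had 2001 bp in all 8 libraries and stood at 0.08 through centring alone. Hox genes with peaks in only some libraries are thus set against genes that could hardly move. With lists of equal length, where 8 Hox genes could be tested, their median was 0.12 and 2 lay below 0, and as the lists stand it was -0.27 without 4_1 replicate 1 and -0.38 without 4_C2 replicate 2. The other 24 Hox genes had too few peaks to enter. Without 6_C4 replicate 2, Hoxa2 was called. The widths of the 4 cluster regions present in all 8 lists gave 0 calls, as did all 10171 such regions (0% called; at an unadjusted p under 0.05 there were 327 lower and 378 higher). They were Hoxb2 at -0.81 ± 0.14 (adjusted p = 0.625), the region inside Hoxb3 at 0.38 ± 0.16 (adjusted p = 0.716), Hoxd8 at 0.11 ± 0.12 (adjusted p = 0.849) and Hoxa4 at -0.16 ± 0.27 (adjusted p = 0.911).

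Within pair 4 the -/- clone lacked more Hox peaks than in pair 6. Hoxa2, Hoxa5 and Hoxa6 were marked in both libraries of 4_1 and neither of 4_C2, 3 of the 17 Hox genes marked in that pair, where 1.97% of all genes were. The reverse pattern was seen for 0 Hox genes and 0.402% of all genes. In pair 6 no Hox gene of 21 showed either pattern, against 1.14% and 0.29% of all genes. Genes marked in every library of a pair cannot show either pattern, and Hoxa5 and Hoxa6 share 1 region. These shares therefore do not measure an excess among Hox genes. Leaving out each library of pair 4 in turn gave 3 to 8 Hox genes, always with these 3 among them, 8 being reached without 4_1 replicate 2 (5.47% of all genes). Hoxa5 and Hoxa6 had a peak in every library except both of 4_C2, a pattern of 1.25% of all genes with a peak. Genes marked in all 8 libraries, 9908 of the 13618 with a peak but 3 of the 22 Hox genes, cannot show that pattern. Among cell type markers the same pattern was found at 2 of 7 for mesoderm (Tbx6 and Eomes), 1 of 8 for feeder fibroblasts (Twist2) and 0 of 7 for pluripotent cells, 0 of 5 for the epiblast and 0 of 6 for endoderm. The other 5 mesoderm markers had a peak in at least 1 library of 4_C2. Whether a different mix of cells in 4_C2 has a part in the Hox values was not tested. Of the 33 peak regions in the 4 clusters, 22 were absent from both lists of 4_C2, where 42.3% of all 26034 regions were absent. By cluster these were 8 of 9 in Hoxa, 2 of 10 in Hoxb, 7 of 7 in Hoxc and 5 of 7 in Hoxd. Regions in all 8 lists cannot be absent, and they were 10171 of the 26034 but 4 of the 33. The shares of absent regions therefore do not measure an excess in the clusters.

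The limma fit with an interaction term called Hoxa5 (adjusted p = 0.000108) and Hoxa6 (adjusted p = 0.000215) lower in -/- within pair 4, where 1.47% of genes were called lower. Within pair 6 it called 0 Hox genes (0.105% of genes were called lower), with Hoxa5 at -0.04 ± 0.11 and Hoxa6 at -0.07 ± 0.11 (SE, log2 scale). The difference between the pairs was itself called for both, with an interaction of 3.21 ± 0.15 for Hoxa5 (adjusted p = 0.000682) and 2.72 ± 0.16 for Hoxa6 (adjusted p = 0.0014), where 1.45% of genes were called. The 2 libraries of 4_C2 are both listed at 0 and so have no spread, which makes these errors small, and the log2 size rests on the pseudocount. In lists of equal length neither gene had peaks enough to be tested. The interaction of Hoxa6 was not called with a pseudocount of 1000 bp or over the whole gene span, whereas its difference within pair 4 was called in all 15 alternatives that tested it.

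**Figure D5:**
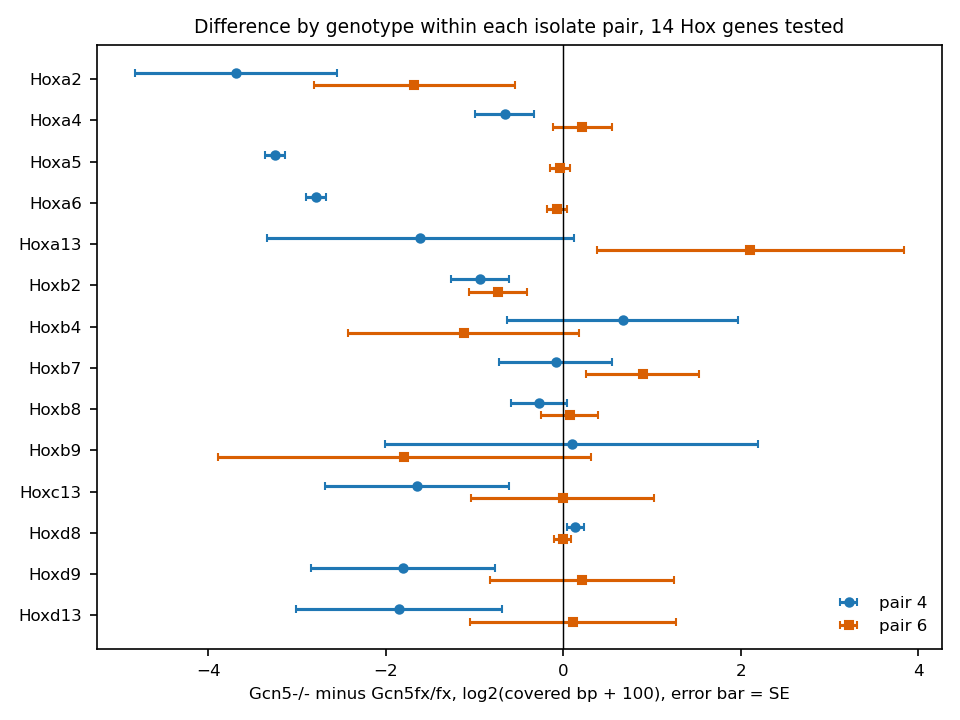
Difference between Gcn5-/- and Gcn5fx/fx within pair 4 (circles) and pair 6 (squares) for the 14 Hox genes tested, in log2(covered bp + 100), with standard errors from limma. Hoxa5 and Hoxa6 stand at -3.25 and -2.79 in pair 4 and near 0 in pair 6, while Hoxb2 lies below 0 in both.

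Isolate pair was the other factor. In the same fit Hoxb8 (adjusted p = 0.000132) and Hoxb7 (adjusted p = 0.0426) were called lower in pair 6, at -4.14 ± 0.22 and -2.88 ± 0.46 (SE, log2 scale with the pseudocount). With centring on library medians 19.7% of genes were called lower and 3.21% higher in pair 6. This count was unstable: without any 1 library of pair 6 it fell to between 9 and 13 genes in all. Without centring 5 genes were called lower and 422 higher, the median of all genes moved from -0.09 to 0.14, and the Hox genes called were Hoxb8, lower, and Hoxd8, higher. Hoxb8 was called lower in all 16 alternatives that tested it, and Hoxb7 was not called in 10 of the 16 alternatives that tested it. Covered lengths of pair 6 lay wholly below those of pair 4 at 2 of 22 Hox genes, Hoxb7 and Hoxb8 (0.176% of all genes with a peak), and wholly above at 4, Hoxa5, Hoxa6, Hoxc13 and Hoxd8 (18.2%, near the 15.2% of all genes). Peaks in all 4 libraries of one pair and none of the other were seen at no Hox gene end, against 1.01% of genes for pair 6 and 0.0367% for pair 4.

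Genes that work with the clusters were read in the same way, from lists chosen by role. All 9 TALE homeobox cofactors of Hox proteins (the Pbx, Meis and Pknox genes) and all 21 Polycomb genes had an end peak in all 8 libraries, as did 11 of 13 Trithorax genes. Of the 6 Cdx and ParaHox genes, which act on or beside the posterior Hox genes, none was marked in all 8 and Cdx4 in none. Of 19 retinoic acid genes 5 were marked in all 8 and 6 in none, among them Rarb and Cyp26b1, while Aldh1a2, which makes retinoic acid, was marked in all 4 -/- and in 2 of 4 fx/fx libraries, the latter both of 6_1. In 14 posterior axis genes the numbers were 6 and 2 (Msgn1 and Wnt3a), and in 10 hindbrain patterning genes 2 and 1. No gene of these lists was called between genotypes in either direction, with list medians of 0.06 for the TALE genes (3 of 9 below 0), 0.07 for Polycomb (5 of 21), 0.08 for Trithorax (3 of 12 tested), -0.49 for hindbrain genes (6 of 7 tested) and -0.11 for posterior axis genes (9 of 12 tested), beside 0.03 over all genes. Genes with the same covered length in all 8 libraries, such as Wdr5 and Ezh2 at 2001 bp, stood at 0.08 through centring alone. The Trithorax median is that value, and the small positive medians of TALE, Polycomb and Trithorax genes do not show a rise.

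Of the lineage markers, 4 of 5 for the epiblast and 2 of 7 for pluripotent cells had a peak in all 8 libraries, against 0 of 7 for mesoderm and 0 of 6 for endoderm. The summed covered length of mesoderm markers was 1626 to 8799 bp in pair 4 and 4860 to 8640 bp in pair 6, and that of endoderm markers 0 to 3593 and 3884 to 4915 bp. Between genotypes no marker of these lists was called, and the medians of the log2 change were -0.98 for mesoderm (7 of 7 below 0), -1.01 for endoderm (3 of 4 tested), -0.77 for pluripotent cells (4 of 6 tested) and 0.02 for the epiblast (2 of 5). Their part in the Hox differences between pairs or genotypes was not tested. The 24 nearest protein-coding neighbours, 3 on each side of each cluster, were mostly constant: 17 had a peak in all 8 libraries. The exceptions included Evx1 and Evx2, the even-skipped homologues at the 5′ sides of Hoxa and Hoxd, the former marked in 2 libraries and the latter in none.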

How the data were processed

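Chromatin of day 5 embryoid bodies was immunoprecipitated for H3K9ac and sequenced as single reads on a HiSeq3000, per the labels' protocols. The authors aligned reads with Bowtie 1.1.2 to mm10 and called peaks with MACS 1.4.2, per the submitters' processing notes. For the threshold, control and filters of peak calling, nothing is stated in these sources. The deposited lists hold peak coordinates only (chromosome, start and end), with no height or score, so the measurements are presence, position and width. The H3 and input samples were not used here. Depth is unknown, and no counting interval can be given.

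Lists were called per library. Genes and promoter sequences are from RefSeq tables of GRCm38.p6, the same assembly as mm10. A gene's windows extended 1 kb from each end. Log2(covered bp + 100), centred on library medians, was fitted with limma 3.58.1 in R 4.3.3 over all protein-coding genes with a peak in at least 4 libraries, with genotype and isolate pair as terms, and separately with their interaction. P-values were adjusted by Benjamini-Hochberg over all genes tested, at 0.05. They measure only the spread between these libraries, which may be technical. Overlapping peaks of the lists were merged into regions, and the log2 widths of those in all 8 lists were fitted likewise. Other steps used Python 3.11.15, pandas 2.3.3, numpy 2.4.6 and matplotlib 3.10.9. The scripts were tested on simulated data.

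All 38 genes were accounted for. By rule, values in every library were given where the number of libraries with a peak differed by at least 2 between genotypes or pairs, and for the 8 largest genotype differences, with at most 3 genes named per other list. Regions inside genes, the count of genes lacking a peak in 4_C2 alone and genes of other lists with no peak in any library were chosen after their values were seen. Members and lists were chosen with earlier results of these data known. The totals of 1 marker list are not reported here.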

Additional observations from a re-analysis of the deposited data

Results flagged for a closer look

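At Hoxa5 and Hoxa6 the difference between the -/- clone and the fx/fx clone was not the same in the isolate pairs. Each pair sets 1 clone against 1 clone, so genotype and clone cannot be told apart within a pair. The interaction was 3.21 at Hoxa5 and 2.72 at Hoxa6, on the scale of log2(covered bp + 100), both past the Benjamini-Hochberg threshold in limma. The genes share most of 1 peak region, which was listed in every library except both replicates of 4_C2.

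Hoxa4 had a mean difference of -644 bp between Gcn5-/- and Gcn5fx/fx in pair 4 and 164.5 bp in pair 6, with both -/- libraries below both fx/fx libraries in the first pair and above them in the second. In limma its interaction was not called. No group of 4 libraries had a library that stood apart from the other 3 by Dixon's criterion in the values tested.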

How the results depend on the processing

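Of 171 values under alternatives, 147 did not turn sign and stayed within the spread or within 1.5 times the main count. They include 18 counts of Hox genes and 16 of Hox regions called between genotypes, all 0 like the main value and without direction. For each cluster's genotype difference the spread allowed was larger than the difference itself (Hoxa, -2983 bp with an SD of 4063.77 bp). The 147 is therefore not a measure of robustness. The Hoxb difference between genotypes, -1124.25 bp, turned to 455.8 bp scaled to the covered length of the library and to 133.2 bp with lists of equal length, moves within the spread between libraries. The number of Hox genes called between genotypes, 0, became 0 to 1 when each library was left out (1, Hoxa2, without 6_C4 replicate 2). The 2 called between pairs became 1 with a pseudocount of 10 bp, 1 with genes having a peak in at least 1 library, 0 with a peak required in all 8, and 1 to 3 with each library left out (3 without 4_1 replicate 1, 1 without 4_1 replicate 2, 4_C2 replicate 2, 6_1 replicate 2 or either replicate of 6_C4). The 2 called for the interaction became 1 with a pseudocount of 1000 bp, 0 with a peak in all 8, 1 over the gene span, 0 with lists of equal length, and 2 to 4 with each library left out (4 without 4_1 replicate 2 or 4_C2 replicate 1). The difference in marked Hox genes, -3.5, was 0 with windows of 0 kb and 0.25 with lists of equal length. The Hoxd difference between pairs, 3471 bp, reversed to -400.5 bp with lists of equal length, an alternative added after seeing the data. Shortening dropped the narrowest peaks, most of them from the lists of pair 6. The cause of the reversal was not tested.

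With the replicate number as a replicate block, 0, 2 and 2 Hox genes were called between genotypes, between pairs and for the interaction, and 9, 2893 and 163 of all genes. Same-numbered libraries of 4_1 and 4_C2 deviated together (r = 0.2), those of 6_1 and 6_C4 less (r = 0.0651), so the numbers are not shown to pair the samples. A replicate block within each isolate pair, added after seeing the data, called 0 and 2. Counts over all genes moved most between pairs, from 2822 to 9 to 13 without any 1 library of pair 6, 194 without 4_C2 replicate 2, 218 without 4_1 replicate 2, 414 without 4_1 replicate 1, 79 with a peak in all 8 libraries, 203 with a peak in at least 1, 199 with peaks of at least 1000 bp, 651 over the gene span, 427 without centring and 171 with lists of equal length. The 9 called between genotypes became 0 with a peak in all 8 and 1 to 36 with each library left out. The 179 called for the interaction became 0 with a peak in all 8 and 167 to 1037 with each library left out.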
